A study of Homo sapiens with 10 samples.

Results

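The genes of endoplasmic reticulum (ER) stress and the unfolded protein response were examined in C33A cells that expressed the SWI/SNF ATPases BRG1 or BRM. The list held 38 genes, chosen by name with no measured value in the rule, and all 38 were matched among the 63152 gene identifiers of each expression table. Polyadenylated RNA was sequenced from 10 libraries, 2 for each of 5 groups, 48 h after transient transfection of this human cervical carcinoma cell line by lipofection. The control cells carried the empty vector pOPRSVI. The BRG1-wt cells carried pBJ5-BRG1, and the BRG1-mut cells carried pBJ5-BRG1-K798R, whose ATPase is deficient. The BRM-wt cells carried pCG-hBrm, and the BRM-mut cells carried pCG-hBrm-K798R, again with a deficient ATPase. All 5 groups were transfected, so that stress shared with the control cells would not appear in any comparison. The BRG1 and BRM plasmids also differ from the control plasmid in their backbone, so that the ATPase and its vector cannot be told apart. The 4 groups were each set against the same 2 control libraries.

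The unfolded protein response starts at 3 sensors of the ER membrane, which are held inactive by the chaperone HSPA5 (BiP) until unfolded proteins draw it away. ERN1 (IRE1) splices the mRNA of XBP1, EIF2AK3 (PERK) phosphorylates eIF2alpha and thereby favours translation of ATF4, and ATF6 is cut in the Golgi to release a transcription factor. These factors raise the genes for chaperones, oxidoreductases and ER-associated degradation, and ATF4 also raises genes of amino acid supply and, through DDIT3 (CHOP), of cell death. Large amounts of a foreign protein and the transfection itself are known as possible triggers, although BRG1 and BRM are nuclear proteins that do not pass through the ER.

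The response is read largely at promoters, and the list was therefore searched for its known elements in the 250 bases before each start site. RefSeq promoter sequences on GRCh38.p14 were matched for 36 of the 38 genes, all but DERL1 and PDIA3. The ER stress response element ERSE, CCAAT and CCACG with 9 bases between them on either strand, stood in 7 of these 36 promoters, those of CALR, CANX, CRELD2, HSP90B1, HSPA5, PDIA6 and XBP1. Its share over 27305 genes was 0.0916%. The related element ERSE-II, ATTGG and CCACG with 1 base between them, stood before HERPUD1, HYOU1 and SDF2L1, against 0.0659% of all genes. The element CARE, TGATGNAAN, to which ATF4 binds with a partner, stood before ASNS, CHAC1, HERPUD1 and PPP1R15B, against 3.87% of all genes. Matches to different elements did not overlap in the listed promoters, and CANX has 2 listed start sites that share 1 match. HSPA5 is shown as the best known target of the response, and SDF2L1, CRELD2 and CHAC1 as the genes with the largest values below, with the element in capitals and the strand of the gene printed:
HSPA5, chr9:125241344-125241593, minus strand: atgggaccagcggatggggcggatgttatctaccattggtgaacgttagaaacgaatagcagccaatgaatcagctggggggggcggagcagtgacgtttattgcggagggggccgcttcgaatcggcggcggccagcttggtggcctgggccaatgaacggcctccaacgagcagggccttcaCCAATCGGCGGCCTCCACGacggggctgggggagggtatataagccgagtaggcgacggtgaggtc
SDF2L1, chr22:21642052-21642301, plus strand: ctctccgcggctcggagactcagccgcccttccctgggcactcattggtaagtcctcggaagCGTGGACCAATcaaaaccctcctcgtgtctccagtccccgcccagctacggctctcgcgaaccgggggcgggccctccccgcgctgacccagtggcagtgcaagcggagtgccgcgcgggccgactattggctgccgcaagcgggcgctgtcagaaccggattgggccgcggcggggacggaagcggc
CRELD2, chr22:49918384-49918633, plus strand: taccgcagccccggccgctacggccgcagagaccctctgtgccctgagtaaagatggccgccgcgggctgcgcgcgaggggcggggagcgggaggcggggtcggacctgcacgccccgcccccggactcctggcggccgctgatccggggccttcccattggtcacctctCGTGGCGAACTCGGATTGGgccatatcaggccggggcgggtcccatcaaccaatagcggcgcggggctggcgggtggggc
CHAC1, chr15:40953221-40953470, plus strand: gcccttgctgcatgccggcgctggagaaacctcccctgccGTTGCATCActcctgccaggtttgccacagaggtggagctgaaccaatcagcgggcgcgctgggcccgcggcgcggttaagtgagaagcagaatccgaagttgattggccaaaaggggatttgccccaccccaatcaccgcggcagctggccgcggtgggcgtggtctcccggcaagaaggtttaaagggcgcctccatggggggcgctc
The element lies 66 to 48 bases before the start of HSPA5, 188 to 178 before SDF2L1, 80 to 62 before CRELD2 and 210 to 202 before CHAC1. The letters are a description of the sequence and show neither binding nor activity in these cells.

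The expression tables give for each gene a base mean, which is the mean of size-factor normalised read counts over the 4 libraries of a comparison, and a log2 fold change against control with its standard error. No value per library is in these tables, so that the spread between the 2 replicates is seen only through the standard errors. The study states a common sequencing depth, but the depth reached in each library is unknown. The study reports duplicates of the cells transfected with BRG1 or BRM, but neither it nor the labels say that replicates came from separate cultures. The p-values measure the spread between these libraries, which may be technical. SMARCA4, the gene of BRG1, had log2 fold changes of 2.77 in BRG1-wt and 3.64 in BRG1-mut, and SMARCA2, the gene of BRM, of 2.20 in BRM-wt and 2.11 in BRM-mut, as the labels state. Of markers of other cell types, the epithelial keratin gene KRT18 had base means of 263 to 696, the collagen gene COL3A1 of 3743 to 4067 and the leukocyte gene PTPRC of 1529 to 1851. The 4 endothelial markers matched stayed at or below a base mean of 12.1 in every table.

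The ER stress genes were transcribed in every table at levels that spanned a wide range. All 38 had a base mean of at least 100 in all 4 tables, and none was lost to a filter on low counts. Per kb of the canonical transcript, the mean over the 4 tables ran from 60.6 for ERN1 to 20399 for HSP90B1 (GRP94, the ER form of HSP90), with a median of 849. After HSP90B1 followed the lectin chaperone CALR at 14468 per kb, ATF4 at 8360 and the oxidoreductase PDIA6 at 8206. HSPA5, with 7011 per kb, stood next to the lectin chaperone CANX, with 7108. At the low end, above ERN1, were CHAC1 at 128, SESN3 at 139 and EIF2AK3 at 160 per kb. The chaperones and oxidoreductases thus filled most of the upper part of the order, whereas the membrane sensors ERN1, EIF2AK3 and ATF6 (451 per kb) lay in the lower part. HSP90B1 and ATF4 have processed pseudogenes that could take some of their reads.

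**Figure D1:**
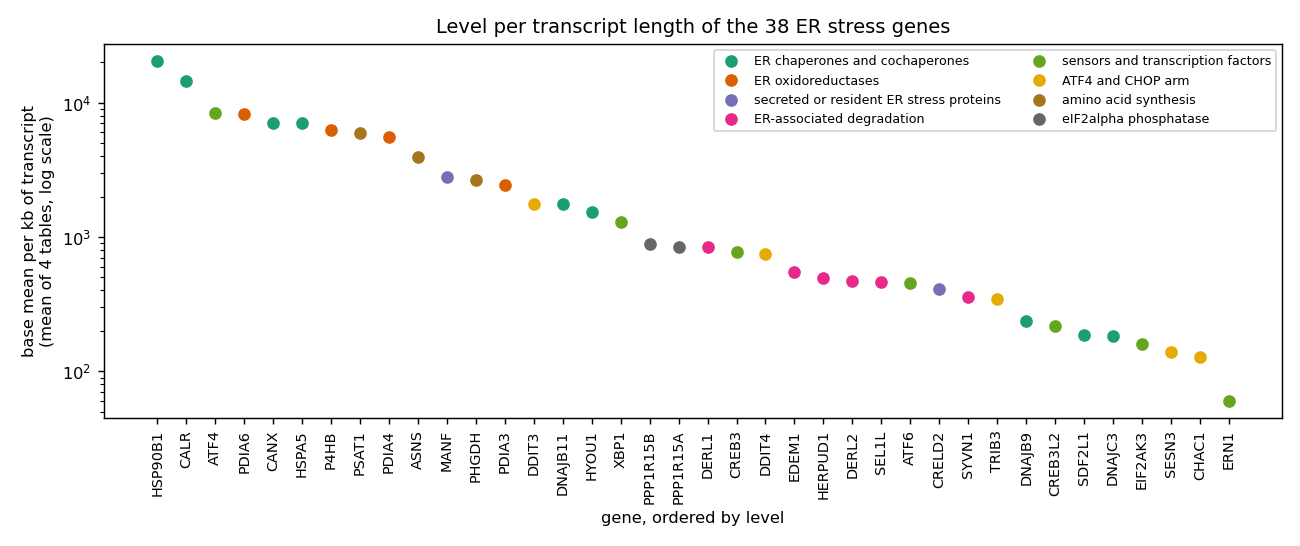
Base mean per kb of canonical transcript of the 38 ER stress genes, as the mean of the 4 expression tables on a log scale, ordered from highest to lowest and coloured by role. HSP90B1 stands highest at 20399 and ERN1 lowest at 60.6, and there is no error bar because each base mean already pools 4 libraries.

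No ER stress gene passed the threshold against control in any of the 4 tables. This was tested by the Wald test of DESeq2 in the deposited tables, adjusted over all genes tested, with adjusted p under 0.05 as the threshold. None of the 38 passed in BRG1-wt, where 1.38% of 18391 genes did. In BRG1-mut, 0 of 38 passed, where 4.86% of 13548 genes did. In BRM-wt, 0 of 38 passed, where 0.567% of 17805 genes did. In BRM-mut, 0 of 38 passed, where 0.00703% of 28464 genes did, which amounts to 2 genes. All calls over all genes were toward higher values in the 4 tables.

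With the unadjusted p under 0.05, the list held 1 gene for BRG1-wt, 5 for BRG1-mut and 0 for either BRM group. All 6 of these values were positive. Among all genes whose base mean reached 100, the same held for 17.0% (BRG1-mut), 4.73% (BRG1-wt), 1.72% (BRM-wt) and 0.0848% (BRM-mut). The counts in the list, as shares of 38, were not far from these.

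The median log2 fold change of the 38 genes was 0.01 for BRG1-wt, -0.01 for BRG1-mut, -0.00 for BRM-wt and -0.03 for BRM-mut. Over all genes whose base mean reached 100 it was -0.01, -0.04, 0.01 and -0.00 in the same order. Single genes of the list ran from -0.22 to 0.32 in BRG1-wt, from -0.29 to 1.01 in BRG1-mut, from -0.32 to 0.32 in BRM-wt and from -0.14 to 0.09 in BRM-mut. The standard errors had medians of 0.14, 0.18, 0.26 and 0.15, so that most of these values were smaller than 1.96 standard errors. The 95% intervals of all 38 genes stayed below a log2 fold change of 1 except with BRG1-mut, where those of 3 genes reached it. In the remaining tables, BRG1-wt, BRM-wt and BRM-mut, they reached at most 0.69, 0.83 and 0.37. No interval reached -1 in any table. The fold changes were shrunken toward 0 when the tables were made, and more in some tables than in others. These intervals therefore hold for shrunken values, and their sizes are not on one scale across tables. The limits of 1 and -1 thus do not bound the change before shrinkage. SMARCA2 shows how strong the shrinkage can be. Its base mean was 12.6 for BRG1-wt but 59658 for BRM-wt, with the same control libraries, whereas its BRM-wt log2 fold change was only 2.20.

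**Figure D2:**
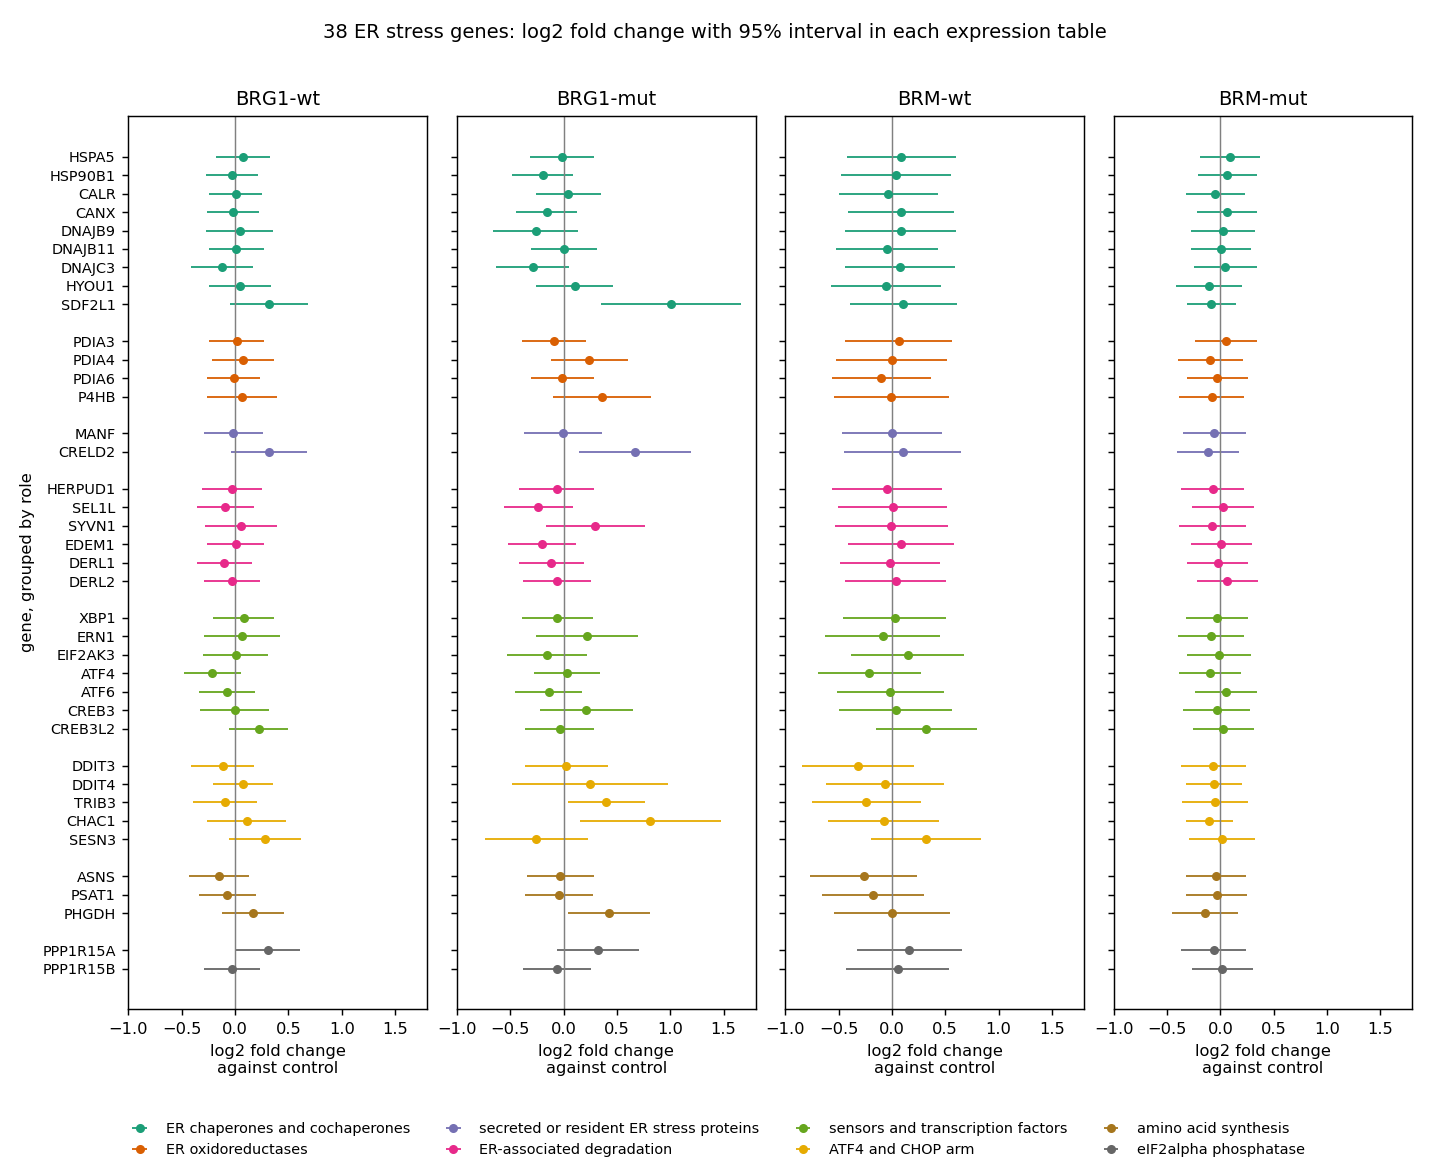
Log2 fold change against control (x axis) of each of the 38 ER stress genes (y axis, grouped and coloured by role) in the 4 expression tables, with 95% intervals from the deposited standard errors, 2 libraries against 2. Almost all intervals cross 0, and SDF2L1, CHAC1 and CRELD2 in BRG1-mut stand farthest to the right.

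The sensors and their transcription factors showed small values throughout. Base means of HSPA5 were 27870 in BRG1-wt, 26233 in BRG1-mut, 27044 in BRM-wt and 28819 in BRM-mut. Its log2 fold changes were 0.07, -0.01, 0.09 and 0.09 in that order, with intervals that covered 0 in each. The widest of these intervals was that of BRM-wt, from -0.42 to 0.60. BiP mRNA, the usual marker of ER stress, thus differed from control by less than the error in each group.

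ERN1, the most ancient of the sensors, had base means of 499, 515, 439 and 461 and log2 fold changes of 0.07, 0.22, -0.09 and -0.09. EIF2AK3 had base means of 731, 672, 758 and 736 and log2 fold changes of 0.00, -0.15, 0.15 and -0.02. ATF6 had log2 fold changes of -0.08, -0.14, -0.01 and 0.06. For these 3 sensors every interval included 0.

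XBP1, the target of ERN1, had base means of 2420, 2233, 2263 and 2344 and log2 fold changes of 0.08, -0.06, 0.03 and -0.03. Its activation acts on a short intron that is cut out in the cytoplasm, which gene counts do not measure, and no exon event in XBP1 was listed. The 2 relatives of ATF6 in the list also lay within their errors. CREB3 ran from -0.03 to 0.21. CREB3L2, which activates genes of secretion, had 0.22 in BRG1-wt (interval -0.05 to 0.50) and 0.32 in BRM-wt (-0.15 to 0.80), against -0.04 in BRG1-mut and 0.03 in BRM-mut.

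ATF4, the factor of the PERK arm, had base means of 11646, 12493, 11019 and 12295. Its log2 fold changes were -0.22 in BRG1-wt (interval -0.48 to 0.05), 0.03 in BRG1-mut, -0.21 in BRM-wt (-0.70 to 0.27) and -0.10 in BRM-mut. It had the smallest value of the list in BRG1-wt. ATF4 is controlled mainly by translation, which was not measured.

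Downstream of ATF4, DDIT3, which encodes the proapoptotic factor CHOP, had base means of 1624, 1682, 1400 and 1673. Its log2 fold changes were -0.12, 0.03, -0.32 and -0.07, with an interval from -0.84 to 0.21 in BRM-wt, where it was the smallest value of the list. TRIB3, a pseudokinase that holds back ATF4 and is induced by CHOP, had -0.10, 0.40, -0.24 and -0.05. DDIT4, an inhibitor of mTORC1 signalling, had 0.07, 0.25, -0.06 and -0.06. SESN3, a stress-induced sestrin, had 0.28 in BRG1-wt, -0.25 in BRG1-mut, 0.32 in BRM-wt and 0.01 in BRM-mut, and each of its intervals included 0. Of these 4 genes, only TRIB3 had an unadjusted p under 0.05 in any table, in BRG1-mut.

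The eIF2alpha phosphatase subunit PPP1R15A (GADD34), which ends the block of translation, was the gene with the unadjusted p under 0.05 in BRG1-wt. Its base means were 2153 in BRG1-wt, 2067 in BRG1-mut, 1930 in BRM-wt and 1833 in BRM-mut. Its log2 fold change in BRG1-wt was 0.31 (SE 0.15), with an interval from 0.00 to 0.61 and an adjusted p of 1.00 by the DESeq2 Wald test. In the other tables it was 0.32, 0.16 and -0.06, all with intervals over 0. The constitutive subunit PPP1R15B stayed between -0.06 and 0.05.

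In BRG1-mut, 5 genes of the list had an unadjusted p under 0.05, and their values were all above control. SDF2L1, a cochaperone of BiP in the ER lumen, had base means of 164 in BRG1-wt, 215 in BRG1-mut, 134 in BRM-wt and 105 in BRM-mut. It was highest in the BRG1-mut table and lowest in that of BRM-mut. Its log2 fold change in BRG1-mut was 1.01 (SE 0.33), with an adjusted p of 0.0526 by the DESeq2 Wald test, just outside the threshold. Adjusted only over genes whose base mean reached 100, the adjusted p was 0.0484. In the other tables its values were 0.32, 0.11 and -0.08, with intervals that covered 0.

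CHAC1, an enzyme that degrades glutathione and a target of ATF4, had base means of 196, 278, 158 and 147. Its log2 fold change was 0.81 in BRG1-mut (SE 0.34, adjusted p = 0.145 by the DESeq2 Wald test). In the remaining tables it stood at 0.11, -0.08 and -0.10. CRELD2, a secreted ER stress protein, had base means of 628, 692, 542 and 471 and a log2 fold change of 0.67 in BRG1-mut (SE 0.27, adjusted p = 0.128 by the same test). It was 0.32 in BRG1-wt, the highest value of the list there, 0.10 in BRM-wt and -0.11 in BRM-mut. Also among the 5 were PHGDH, the entry enzyme of serine synthesis, with 0.43 in BRG1-mut, and TRIB3, with 0.40.

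The values of the list in BRG1-mut went with the GC content of the gene. Over 11708 genes whose base mean reached 100, Spearman's rho between exonic GC content and log2 fold change was 0.828 in BRG1-mut, and over the 38 ER stress genes it was 0.887. These coefficients are across genes, which share libraries and are not independent replicates. In the other tables, rho over the list was 0.378 for BRG1-wt, -0.240 for BRM-wt and -0.737 for BRM-mut, beside 0.577, 0.235 and -0.740 over all genes. The list had a median exonic GC content of 47.0%, from 37.3% in DNAJB9 to 64.5% in SDF2L1. In BRG1-mut, the 11 ER stress genes with at least 55% GC had a median log2 fold change of 0.32, whereas the 17 genes under 45% had -0.11. In BRM-mut the same genes had -0.08 and 0.02, the opposite order.

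SDF2L1 and CHAC1, with 64.5% and 62.7%, had the highest GC contents of the list. With the median of genes of like GC content subtracted, SDF2L1 stood at 0.07 in BRG1-mut, CHAC1 at 0.00, CRELD2 at 0.26, PHGDH at 0.34 and TRIB3 at -0.24. After the subtraction the list ran from -0.37 to 0.34 in BRG1-mut, and none of the 38 genes passed in any table. The shares of all genes that passed were then 1.43%, 0.0302%, 0.603% and 11.3% in the order of the tables, and in the last, BRM-mut, 3094 of the 3098 genes had a base mean under 100. The cause of the relation with GC content was not tested.

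**Figure D3:**
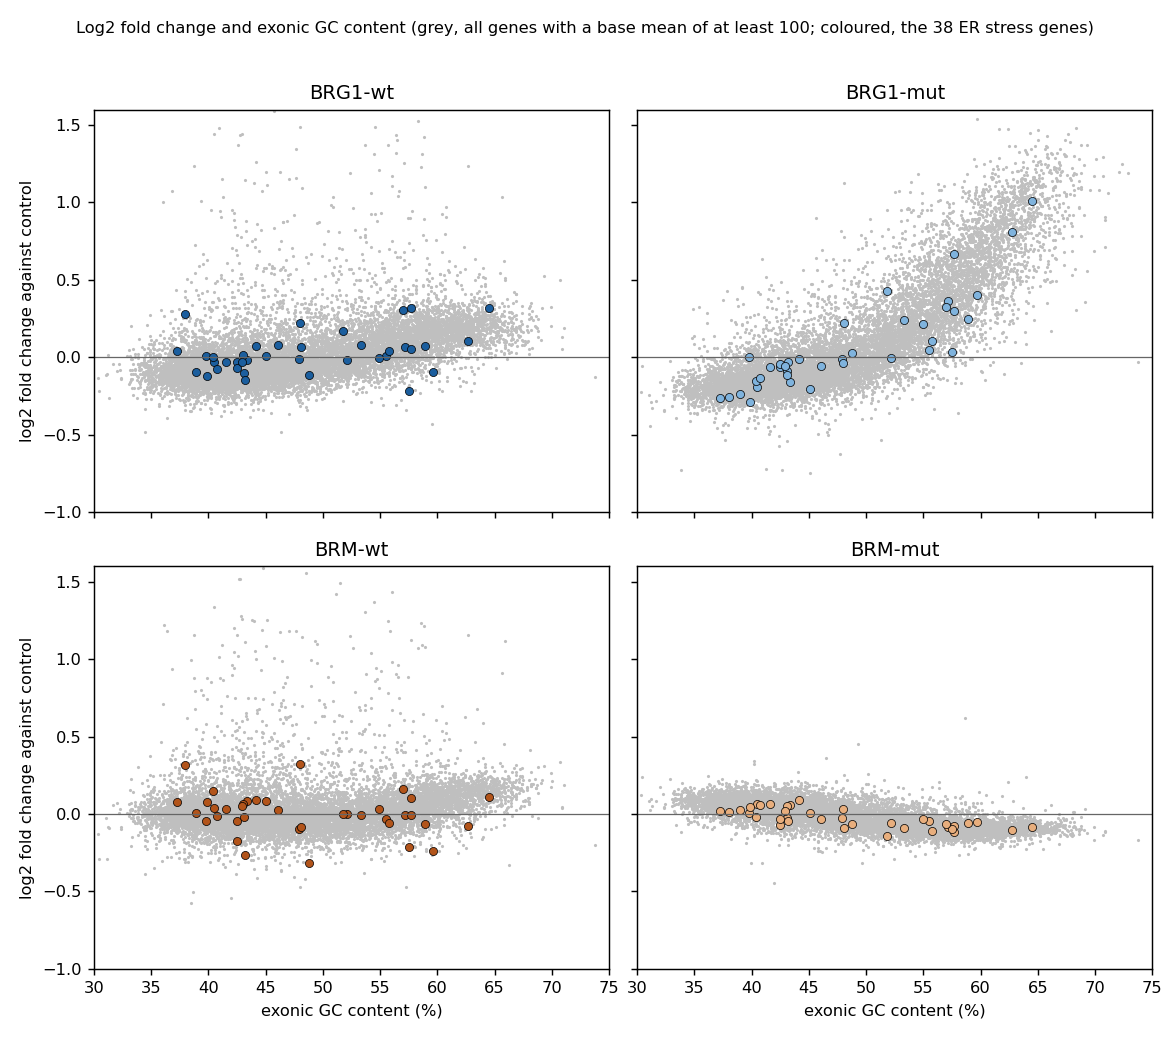
Log2 fold change against control (y axis) and exonic GC content in percent (x axis) of the 38 ER stress genes (coloured points) and of all genes whose base mean reached 100 (grey), in the 4 expression tables. Genes beyond the y axis limits are not drawn. In BRG1-mut the ER stress genes lie along the rising band of all genes, with SDF2L1 at 1.01 at the upper right.

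The chaperones and their cochaperones, other than SDF2L1, showed no such values. Their median log2 fold change, SDF2L1 included, was 0.01 in BRG1-wt, -0.01 in BRG1-mut, 0.08 in BRM-wt and 0.02 in BRM-mut. HSP90B1 had base means of 57149, 52710, 56398 and 60742 and log2 fold changes of -0.03, -0.19, 0.04 and 0.07. CALR and CANX, the chaperones for glycoproteins, lay between -0.16 and 0.08. HYOU1, an exchange factor for BiP, had 0.10 in BRG1-mut and -0.11 in BRM-mut. The J-domain proteins DNAJC3 and DNAJB9, both with a GC content under 40%, had the 2 smallest values of the list in BRG1-mut, -0.29 and -0.26, with intervals over 0. DNAJB11 did not go beyond -0.05 in any table.

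Of the oxidoreductases, which form disulphide bonds, P4HB had 0.36 in BRG1-mut (interval -0.10 to 0.82) and -0.08 in BRM-mut. PDIA4 had 0.24 and -0.09 in the same tables. PDIA3 and PDIA6 stayed between -0.10 and 0.06 in all 4 tables. MANF, a secreted factor released under ER stress, stayed between -0.06 and 0.00.

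The 6 genes of ER-associated degradation, which returns misfolded proteins to the cytosol, had medians of -0.03, -0.09, 0.00 and -0.01. The ubiquitin ligase SYVN1 (HRD1) had its highest value in BRG1-mut, 0.30, whereas its partner SEL1L had -0.24 and the mannosidase-like EDEM1 -0.20 there. HERPUD1, which is strongly induced by ER stress in many cells, had base means of 1442, 1389, 1364 and 1430 and log2 fold changes of -0.03, -0.06, -0.04 and -0.07. The channel proteins DERL1 and DERL2 stayed between -0.11 and 0.07. The amino acid synthesis genes ASNS and PSAT1, both targets of ATF4, had -0.15 and -0.07 in BRG1-wt and -0.27 and -0.18 in BRM-wt, with intervals over 0.

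Genes with and without a promoter element had medians close to each other. In the 10 genes with ERSE or ERSE-II, the median log2 fold change was 0.02 in BRG1-wt, -0.01 in BRG1-mut, 0.03 in BRM-wt and -0.04 in BRM-mut. In the 26 genes with neither, it was 0.01, -0.00, -0.00 and -0.04. The 4 genes with CARE had -0.03, -0.04, -0.06 and -0.06. SDF2L1, with ERSE-II, and CRELD2, with ERSE, were at the top of the first set in BRG1-mut. HSPA5, with ERSE as in CRELD2, was at -0.01 there.

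The wild type and mutated ATPases were not compared directly in any table, but the base means allow a comparison that does not depend on shrinkage. Because each table holds the same 2 control libraries, the difference of base means between tables, multiplied by 2, gives the difference between the 2 groups, once the tables are scaled to a common median. On this scale the ratio of the highest to the lowest of the 4 base means had a median of 1.13 over the 38 genes and was under 1.2 for 28 of them. Over 11646 genes that reached a base mean of 100 in every table, the median ratio was 1.11. The ratio was over 1.5 for 3 of the 38 genes, SDF2L1 with 2.17, CHAC1 with 2.00 and CRELD2 with 1.56, or 7.89%, beside 11.2% of all genes.

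SDF2L1 was 237 normalised counts higher in BRG1-mut than in BRM-mut, and 113 counts lower in BRG1-wt than in BRG1-mut, a difference of -113. CHAC1 was 285 higher in BRG1-mut than in BRM-mut, and CRELD2 was 507 higher. A control level can be computed from a base mean and its shrunken fold change. For SDF2L1 it came to 146 with BRG1-wt, 143 with BRG1-mut, 129 with BRM-wt and 108 with BRM-mut. For HSPA5 the 4 computed levels were 27153, 26363, 26212 and 27886. The control libraries were the same in all 4 tables, but the fold changes were shrunken to different degrees. These computed values are therefore not measured control levels. The differences of base means between groups have no error, since the tables give no value per library. Every gene must have a highest and a lowest table. Of the 38 genes, 19 had their highest scaled base mean in the table of BRG1-mut and 15 their lowest there, and 16 had their lowest in that of BRM-mut. The same counts were not made over all genes, so that these show nothing particular to the list.

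**Figure D4:**
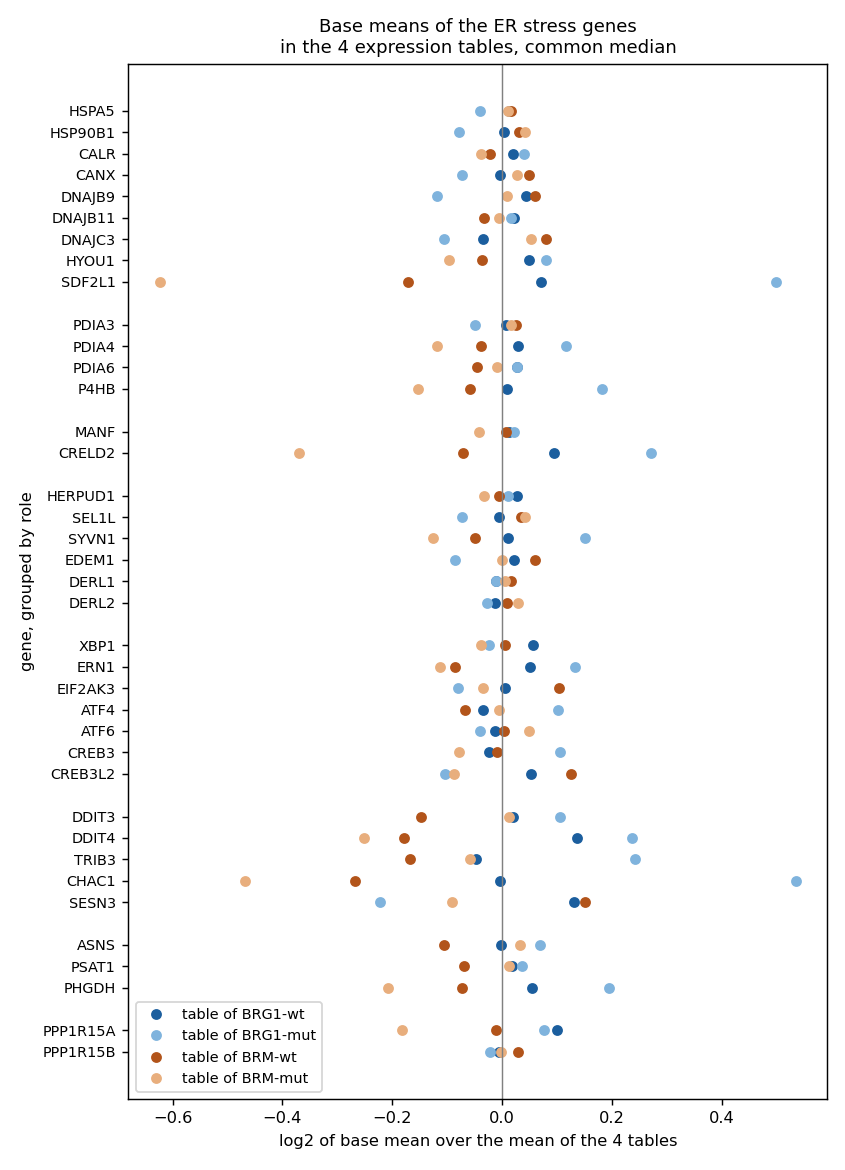
Base mean of each ER stress gene in the 4 expression tables, scaled to a common median and shown as log2 of the ratio to the mean of the 4 tables (x axis), with genes grouped by role (y axis). Most genes lie within a narrow band, and SDF2L1, CHAC1 and CRELD2 spread most, from the table of BRM-mut at the left to that of BRG1-mut at the right.

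Among the other genes of the pathway a few passed. Of 123 further genes of ER folding, degradation, translocation, sensing and the integrated stress response, 120 were matched. The shares of all genes that passed were 1.38% in BRG1-wt, 4.86% in BRG1-mut, 0.567% in BRM-wt and 0.00703% in BRM-mut, every one toward higher values. In BRG1-wt, 3 of the 116 further genes tested passed the threshold. These were EIF2AK2 (PKR), the eIF2alpha kinase that answers double-stranded RNA, with a log2 fold change of 1.01 and an adjusted p of 2.09e-07, the lipoprotein receptor gene VLDLR with 0.69 and 0.0137, and SEL1L3, a relative of SEL1L, with 0.54 and 0.0121. In BRG1-mut, 2 of 112 passed, the amino acid transporter gene SLC7A5 with 0.91 and an adjusted p of 0.0263, and CBS, of cysteine synthesis, with 1.01 and 0.0173. In BRM-wt 0 of 115 passed and in BRM-mut 0 of 119, where EIF2AK2 had 0.80 (adjusted p = 0.430) and 0.08. All adjusted p-values here are from the DESeq2 Wald test.

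EIF2AK2 had base means of 14096 in BRG1-wt and 14644 in BRM-wt, and of 7573 in BRG1-mut and 8411 in BRM-mut. Both wild type tables thus lay above both tables of mutants. With the GC trend subtracted, EIF2AK2 stood at 1.10 in BRG1-wt and still passed, with an adjusted p of 7.83e-09. SLC7A5 and CBS, with GC contents of 61.1% and 60.0%, stood at 0.24 and 0.37 in BRG1-mut after the subtraction, each with an adjusted p of 1.

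Exon inclusion was listed as changed in few of the ER stress genes. Inclusion was given as PSI, the share of transcripts that contain an exon, for each library and the control library of the same number, and an event was listed where the Bayes factor of MISO, its score for a change, was above 10. The 8 splicing tables held 7 listings for the list, on 6 exons of 6 genes, or 15.8% of the 38. By group, 1 gene had an event in BRG1-wt (2.63%), 2 in BRG1-mut (5.26%), 3 in BRM-wt (7.89%) and 0 in BRM-mut. Among all genes whose base mean reached 100, the shares with an event were 6.23%, 7.7%, 9.58% and 6.49%. Reads per event are unknown, and events below the Bayes factor are not listed, so that no test over all events was possible.

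The largest single change was in TRIB3 in BRG1-mut replicate 2, where PSI was 0.48 in control and 0.05 in the group, with a Bayes factor of 31.2. The exon, chr20:363077-363270 on the plus strand of GRCh37, is exon 2 of the transcript TRIB3-202 alone and is not part of the canonical transcript. Its first 113 bases are 5′ UTR and its last 81 are coding. PDIA4 had low inclusion of an annotated exon in the same library, with PSI of 0.00 in control and 0.03 in the group and a Bayes factor of 216115. This exon, chr7:148724941-148725084 on the minus strand, has 144 coding bases and is exon 2 of PDIA4-202, which is not the canonical transcript. Its length is a multiple of 3. The coding part of the TRIB3 exon and the PDIA4 exon are printed because they alter the protein that would be made, with the exon in capitals and 10 intron bases in lower case:
TRIB3, chr20:363190-363270, plus strand: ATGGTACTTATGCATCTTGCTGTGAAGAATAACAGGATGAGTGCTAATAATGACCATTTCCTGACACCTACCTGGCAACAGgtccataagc
PDIA4, chr7:148724941-148725084, minus strand: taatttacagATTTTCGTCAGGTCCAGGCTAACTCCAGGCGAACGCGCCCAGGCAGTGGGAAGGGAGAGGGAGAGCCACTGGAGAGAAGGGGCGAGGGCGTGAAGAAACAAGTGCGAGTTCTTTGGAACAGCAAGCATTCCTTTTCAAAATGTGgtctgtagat
Neither event was listed in BRG1-mut replicate 1 or in any other group.

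ASNS, which makes asparagine, was the only gene of the list with an event in both replicates of a group, and the replicates went opposite ways. The exon of 36 bases, chr7:97499090-97499125 on the minus strand of GRCh37, lies in the 5′ UTR and is exon 2 of the canonical transcript ASNS-202. In BRM-wt replicate 1 its PSI was 0.28 in control and 0.67 in the group, with a Bayes factor of 585. In BRM-wt replicate 2 it was 0.47 in control and 0.17 in the group, with a Bayes factor of 691. The libraries labelled control themselves differed, with 0.28 against 0.47. Of 293 exons listed in both BRM-wt replicates, 280 went opposite ways and 13 the same way, whereas in BRG1-mut 11 of 145 went opposite ways, in BRG1-wt 27 of 57 and in BRM-mut 21 of 48. Where an exon was listed in several tables of the same replicate number, its control PSI was identical in all 1951 pairs of listings, so that control and group values were not exchanged within a table. In the expression tables, which share the 2 control libraries, SMARCA2 had base means of 12.6 for BRG1-wt, 9.33 for BRG1-mut and 59658 for BRM-wt. The libraries used there as control thus held little SMARCA2 RNA. Whether a whole library carries the wrong label in the splicing tables was not tested. If one did, the PSI values given here for control and BRM-wt would change places or belong to another group. No direction can be given for ASNS, and those of HERPUD1 and PDIA6 in BRM-wt rest on the labels of 1 pair of libraries.

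The 3 remaining events were each seen in 1 replicate. HERPUD1 had PSI of 0.94 in control and 0.75 in BRM-wt replicate 2, with a Bayes factor of 18.9. The listed form, chr16:56973807-56974000, has the same start as coding exon 6 of the canonical transcript and ends inside it. That exon has coding bases to 56974157. The listed form is an exon of the transcript HERPUD1-219 alone, whose coding sequence is not defined. MANF had 0.02 and 0.01 in BRG1-wt replicate 1 for an exon of a transcript marked for nonsense-mediated decay. PDIA6 had 0.02 and 0.00 in BRM-wt replicate 1 for an exon outside the canonical transcript. A change of at least 0.2 was listed only for TRIB3 and for ASNS.

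**Figure D5:**
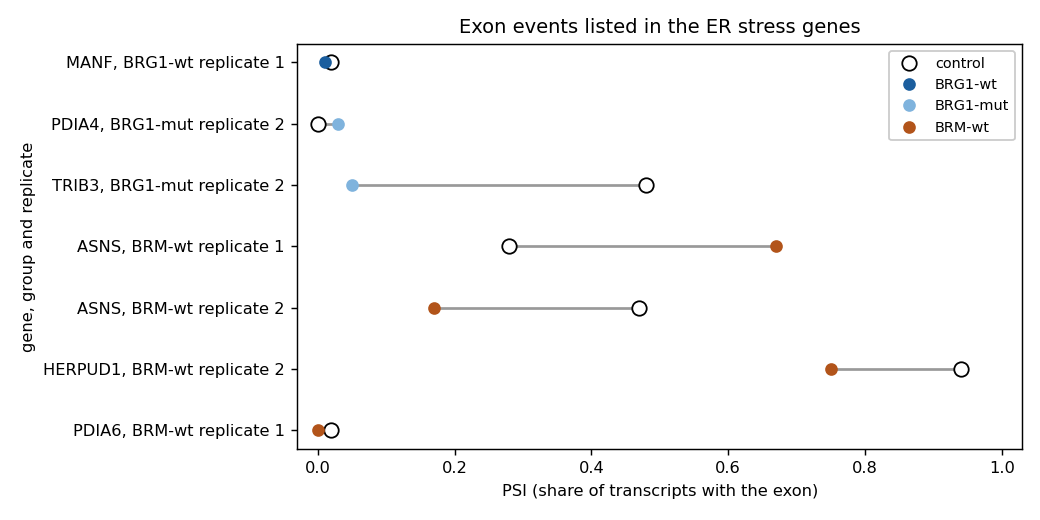
PSI, the share of transcripts with the exon (x axis), in the control library (open circle) and in the ATPase library of the same number (filled circle) for the 7 listings in ER stress genes. The lines of TRIB3 and ASNS are the longest, and those of ASNS in the 2 BRM-wt replicates run in opposite directions.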

How the data were processed

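Reads were mapped by the authors with TopHat2 2.0.4 to GRCh37, counted per gene with HTSeq 0.6.1 with duplicates kept, and compared by DESeq2 with default options. In the deposited tables the base mean is a signal, the mean of normalised counts over 4 libraries. The log2 fold changes in the deposited tables are shrunken and come with standard errors. The deposited p-values, raw and Benjamini-Hochberg adjusted, come from the Wald test of the authors' DESeq2 run. These columns are the comparisons of the study itself, and were used because no values per library were in the files used here. PSI was deposited as a fraction, and the Bayes factor as a score, both from MISO run by the authors, with each library set against the control library of its number. A second copy of the BRG1-wt table was not used.

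Symbols were matched to Ensembl identifiers through GENCODE v44lift37, and intervals are 1.96 standard errors on each side. Exonic GC content was taken from GRCh37, and the median log2 fold change in 50 GC bins of genes whose base mean reached 100 was subtracted. The p-values were then computed again from the deposited standard errors. The code of this step was run on simulated data with a linear GC trend and strongly changed genes. There the trend was the same at low and high base means, which need not hold for shrunken values. That run therefore does not show how the step acts on genes with low base means here. Python 3.11.15, pandas 2.3.3, scipy 1.17.1 and statsmodels 0.14.6 were used. Promoters are from RefSeq. Alternatives were an adjusted p under 0.01, other sets of genes for the adjustment, a log2 fold change of at least 1, centring, a Bayes factor above 20, a PSI change of at least 0.2 and each replicate left out for splicing.

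The rule for the 38 genes uses names alone, but it and the other lists were drawn up with earlier results of these data known. Named were genes past the threshold, the 5 highest and 5 lowest values per table, the central genes HSPA5, ERN1, EIF2AK3, ATF6, XBP1, ATF4 and DDIT3, and genes with an exon event, and other values illustrate each role. Lists of cytosolic heat shock and interferon response genes are given as a description.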

Additional observations from a re-analysis of the deposited data

How the results depend on the processing

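Of 77 values recomputed under alternatives, 63 kept their direction, their side of the threshold and, for counts, their size within 1.5 times. Some of the 63 could not have changed. A count of 0 genes stays 0 with an adjusted p under 0.01 or a log2 fold change of at least 1. The 0 events in BRM-mut stay 0 under any stricter filter or without a replicate. Every listed gene already had a base mean of at least 100, so that this filter left the medians as they were. The tally therefore does not measure how robust the results are. In BRG1-mut the count of ER stress genes past the threshold was 1, SDF2L1, when p-values were adjusted over genes whose base mean reached 100 (adjusted p = 0.0484) and when fold changes were centred on the median of all genes (log2 fold change 1.05, adjusted p = 0.0351), and 0 under the other 4 alternatives. Adjusted over all genes with a p-value, SDF2L1 had an adjusted p of 0.110. TRIB3 in BRG1-mut went from 0.40 to -0.24 with the GC trend subtracted. Exon events numbered 0 in BRG1-wt and 1 in BRG1-mut with a PSI change of at least 0.2, and 0 in both groups when both replicates were required. In BRM-wt they numbered 1 with a Bayes factor above 20, 1 with a PSI change of at least 0.2 and 1 in both replicates. Leaving out a replicate gave 0 to 1 events in BRG1-wt, 0 to 2 in BRG1-mut and 2 in BRM-wt. Without BRG1-wt replicate 1 and without BRG1-mut replicate 2 no event was left. Over all genes, the GC subtraction left 4 of 13230 in BRG1-mut, where 658 had passed, and gave 3098 of 27364 in BRM-mut, where 2 had. Not scaling the base means left 2 genes over 1.5 times apart in place of 3, an alternative chosen after seeing the data. No paired analysis was possible because the expression tables give no value per library, and the splicing tables already set each library against the control of its number. Leaving out a library of the expression tables could not be done for the same reason. Shrinkage, 2 libraries per group and the unknown depth reached in each library limit what small values show.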

Other observations

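Calls in other stress genes of the same tables are given as a description. Their lists were drawn up with earlier results of these data known, so that they cannot serve as a contrast to the ER list. Over all genes tested, 1.38% passed in BRG1-wt, 4.86% in BRG1-mut, 0.567% in BRM-wt and 0.00703% in BRM-mut, all toward higher values. Of 14 cytosolic heat shock genes, 1 passed in BRG1-wt, 2 in BRG1-mut, 0 in BRM-wt and 1 in BRM-mut by the DESeq2 Wald test. HSPA6, an inducible cytosolic HSP70, had a log2 fold change of 2.19 in BRG1-wt, 2.84 in BRG1-mut, 0.49 in BRM-wt (not past the threshold) and 0.62 in BRM-mut. HSF1, the second gene in BRG1-mut, had 0.98 there and -0.05 with the GC trend subtracted. Of the interferon response genes, 10 of 16 passed in BRG1-wt, 1 of 12 in BRG1-mut, 9 of 16 in BRM-wt and 0 of 16 in BRM-mut. EIF2AK2, the eIF2alpha kinase named above, is itself an interferon-induced gene. The differences between these lists and the ER stress genes were not tested.

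Events in the other genes of the pathway were listed for 9 of 120 genes in BRG1-wt, 4 in BRG1-mut, 6 in BRM-wt and 9 in BRM-mut, or 7.5%, 3.33%, 5% and 7.5%.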
